A study of Mus musculus with 4 samples.

Results

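The nucleolar ribosome biogenesis factors are 46 genes, listed by symbol, for rRNA transcription, rRNA processing and ribosome assembly. All 46 symbols were found among 24340 deposited genes, and all 46 were measured, that is at a mean of at least 1 FPKM (fragments per kilobase of transcript, scaled to library depth) over the libraries, as were 10471 genes in all. RNA came from bone marrow cells of C57BL/6 mice gated as Lin-cKit+, without markers of mature lineages and with the stem cell factor receptor. All groups carried JAK2V617F, an activated form of the kinase JAK2. The 4 groups were Tet2-/- (KO) with ruxolitinib, Tet2-/- control, Tet2+/+ (WT) with ruxolitinib and Tet2+/+ control, each with 1 library. Tet2 encodes an enzyme that oxidises methylated cytosine, and ruxolitinib inhibits JAK1 and JAK2. The series text describes conditional inactivation of Tet2 in blood cells; the Cre driver, dose, time with drug, age and number of animals per library are not stated in the labels.

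With 1 library per group there is no replicate check, no p-value was computed, and every difference compares 2 libraries. Comparisons that share a library are not independent and are set side by side only. Depths estimated from the steps between low FPKM values were 51.8, 54.9, 47.7 and 44.2, in units of 1000000 fragments, in the KO ruxolitinib, KO control, WT ruxolitinib and WT control libraries. Xist, made in female cells, was at 62.2 and 53.2 FPKM in the KO ruxolitinib and KO control libraries and at 0.0309 and 0.0241 in the matching WT libraries, so genotype and sex cannot be told apart. The cells held much mast cell RNA: the chymase Cma1 lay between 8289 and 15834 FPKM. Mast cell markers summed to between 19445 and 31270 FPKM, a sum that includes Kit, which lay between 421 and 647. The cells were gated on the Kit protein, so the Kit level cannot tell mast cells from other gated cells. Not all listed markers were high: Hdc did not exceed 12.2 FPKM and Tpsab1 did not exceed 51.98. Of 11 progenitor genes 6 were measured: Cd34 lay between 307 and 465 FPKM, Ctsg between 27.1 and 108, Meis1 between 30.1 and 38.2 and Mecom between 8.51 and 11.0, while Mpo and Elane did not exceed 1.31 and 0.0256. The progenitor gene Flt3 was listed at 0 in all libraries, as was the mast cell gene Cpa3. Neutrophil markers summed to at most 0.695 FPKM and B cell markers to at most 0.391. In bulk RNA, fewer cells of a type and less RNA per cell cannot be told apart.

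Ribosomes are assembled in the nucleolus. RNA polymerase I transcribes a long precursor rRNA there. Small nucleolar ribonucleoproteins (snoRNPs) guide its methylation and pseudouridylation, and large assemblies of processing factors, helicases and GTPases cut it and fold it into the 40S and 60S subunits. In dividing cells these genes are known as a set driven by Myc, and cytokine signalling through JAK2 and STAT5 is one input to it.

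The factors were highest in the untreated KO library and lower with ruxolitinib in both genotypes. The KO control library held the highest of the 4 values for 46 of 46 genes, a place it held for 31.8% of all measured genes. The WT ruxolitinib library held the lowest value for 44 of 46, against 26.3% of all measured genes, and the KO ruxolitinib library held it for the other 2, Nop14 and Ddx10. Summed over the genes, the level was 1576 FPKM in KO ruxolitinib, 2148 in KO control, 1361 in WT ruxolitinib and 1621 in WT control. In 25 genes the order was WT ruxolitinib, KO ruxolitinib, WT control and KO control from low to high, and in 19 genes the KO ruxolitinib library lay above the WT control. The order of this middle pair depends on the scaling: after rescaling each library to a fixed sum (TPM), KO ruxolitinib lay above WT control in 40 genes and below it in 6, with 21 signs turned. On FPKM the ends of the order were the same in 44 genes.

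**Figure D1:**
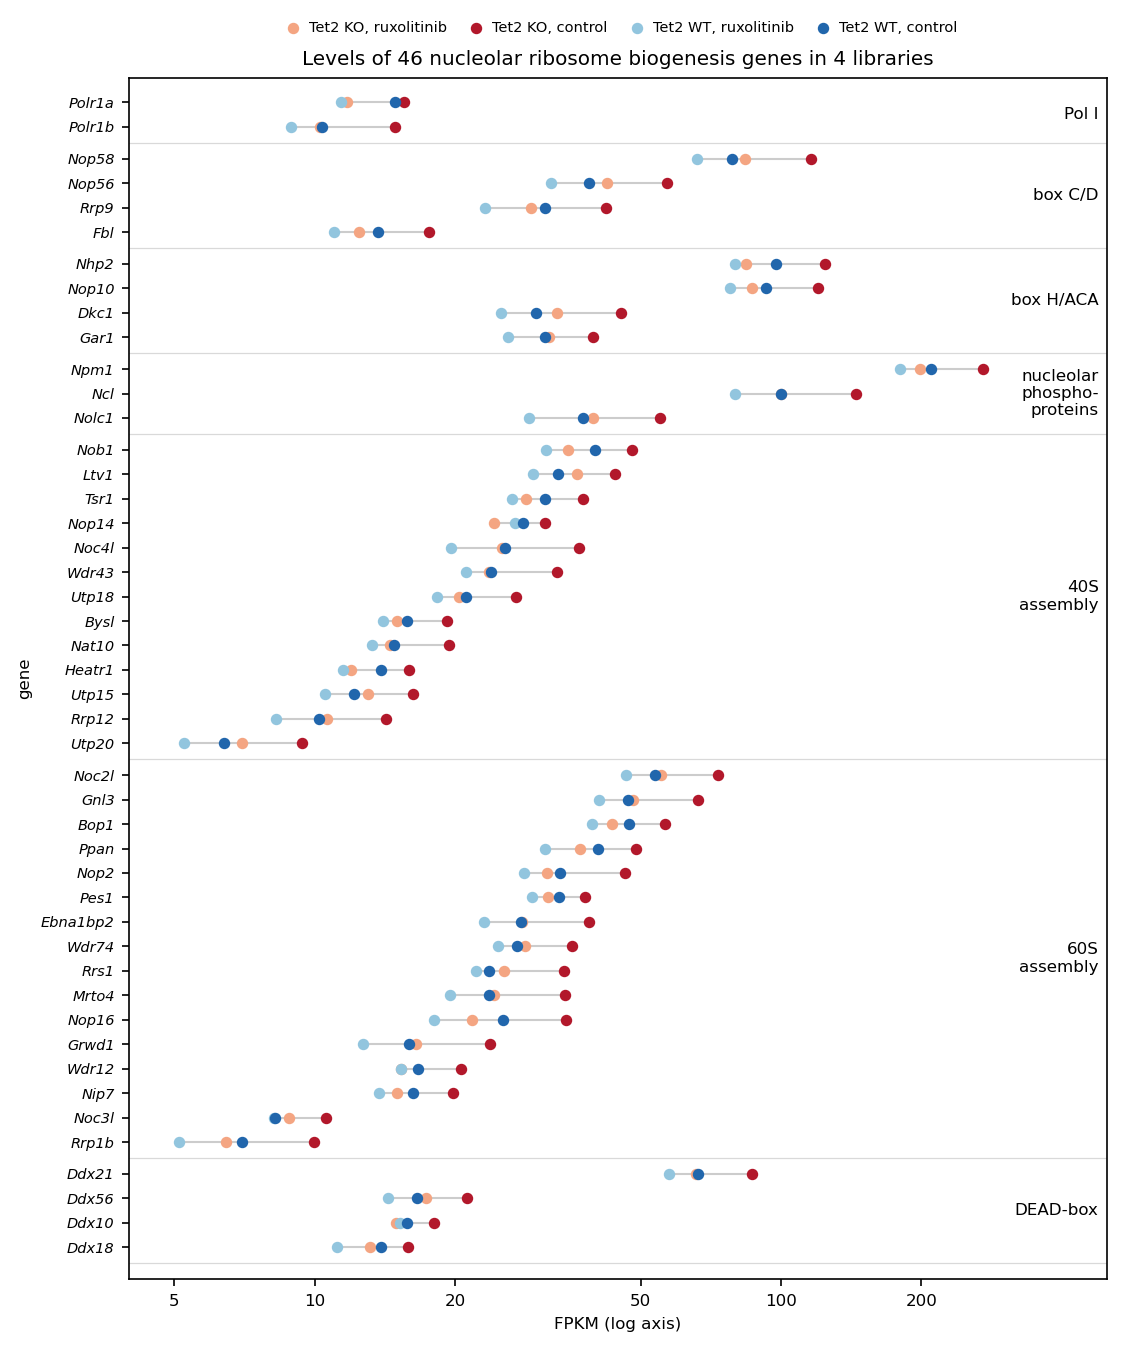
FPKM (log axis) of each of the 46 genes in the 4 libraries, grouped by role and sorted by mean level, with 1 point per library and a grey line over the range. The KO control point is the rightmost in all 46 rows and the WT ruxolitinib point is the leftmost in 44.

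The differences were moderate in size and shared by nearly all members. Ratios are given as log2 of FPKM + 1, and genes are counted from 0.32 (25% higher) upwards or -0.32 downwards. Without drug, the median ratio of KO over WT was 0.38, or 1.30-fold, against 0.00 over all measured genes, and 46 of 46 ratios were positive, against 50.4% of all genes. By at least 0.32, 33 of 46 members were higher and 0 were lower, against 12.8% and 12.9% of all measured genes. At 1.5-fold or more 1 member, Dkc1, was higher, against 3.88% of all genes. With ruxolitinib, the median ratio of KO over WT was 0.19, with 9 members higher by at least 0.32 and 0 lower, against 9.45% and 9.03% of all genes; on values rescaled to a fixed sum per library (TPM) 24 members were as far higher. In this comparison 44 ratios were positive, against 50.2% of all genes, and Nop14 and Ddx10 were at -0.14 and -0.03; on TPM, Nop14 was at -0.02 and Ddx10 at 0.10.

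Ruxolitinib libraries were lower for 46 of 46 members in each genotype, a joint direction seen in 36.5% of all measured genes, although Noc3l in WT cells was at -0.00 and at 0.03 on TPM. In KO cells the median ratio of ruxolitinib over control was -0.40, or 0.757-fold; 38 members were lower by at least 0.32, against 7.65% of all genes, and Nop16 by 1.5-fold, against 2.2%. Negative ratios were found for 48.7% of all genes in KO cells and 47.7% in WT cells. In WT cells the median was -0.24, or 0.844-fold, and 8 members were lower by at least 0.32, against 6.06%. The KO ratio minus the WT ratio had a median of -0.19 and was negative for 45 of 46 members, against 52.6% of all genes, with Ddx18 at 0.04 as the exception. Rrs1, at -0.32, was the only member whose difference reached 0.32 in size, against 2.44% of all genes, and the difference between genotypes was not tested.

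**Figure D2:**
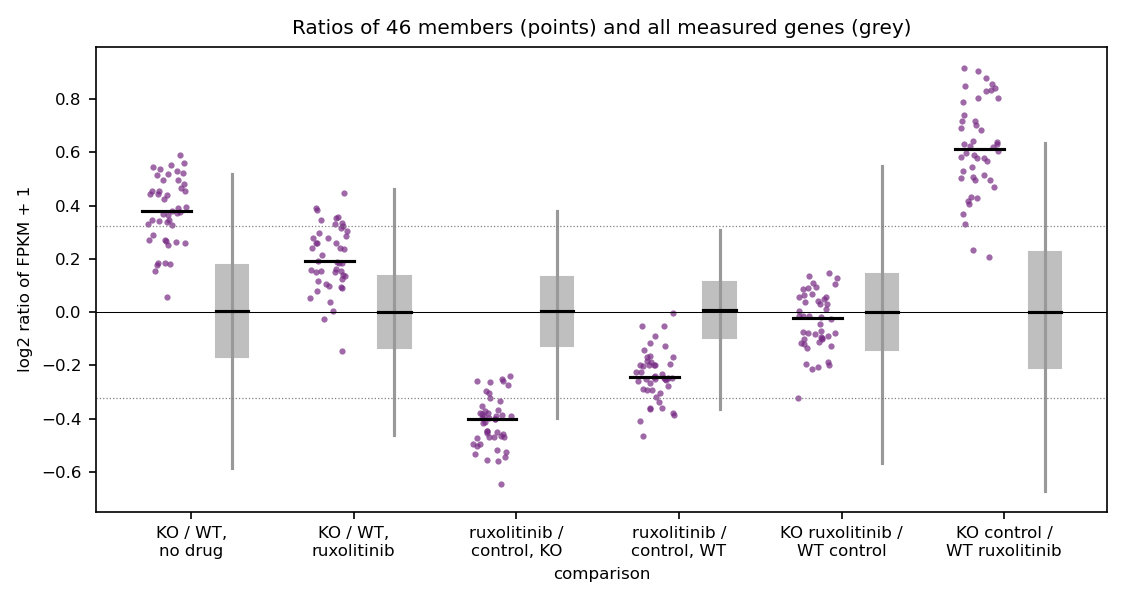
Log2 ratios of FPKM + 1 in 6 comparisons, with each member as a point and its median as a bar, beside all measured genes in grey (box for the quartiles, whisker for 5% to 95%). The dotted lines mark 0.32 and -0.32; members sit above 0 for KO over WT, except Nop14 and Ddx10 with drug (Ddx10 is above 0 on TPM), and at or below 0 in both ruxolitinib comparisons (Noc3l in WT is at 0.03 on TPM).

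Setting the ends of the order against each other, KO control over WT ruxolitinib gave a median of 0.61, or 1.53-fold. Higher by at least 0.32 were 44 of 46 members, against 17.8% of all genes, and 26 were at least 1.5-fold higher, against 6.04%. The other diagonal, KO ruxolitinib over WT control, had a median of -0.02, with 0 members at 0.32 in either direction, against 10.9% of all genes higher and 11.2% lower. On FPKM, treated KO cells thus held these transcripts near the level of untreated WT cells. Rescaling each library to TPM moved the median of all genes in this comparison to 0.16 and that of the members to 0.15, so the distance between members and other genes was -0.02 in both scalings. In the KO over WT comparisons the same rescaling moved the median of all genes by 0.15 without drug and 0.13 with drug, and the members stood 0.39 and 0.20 above it, against 0.38 and 0.19 on FPKM. The KO control library was the highest for every member on TPM as well.

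The authors' deposited table gives Cuffdiff q-values, which compare the libraries and not the conditions. In the authors' deposited table, 26 members had q under 0.05 and were higher in KO control than in WT control, against 9.37% of the genes tested there, and with drug 2 members, against 7.39%. For ruxolitinib over control, the authors' deposited table has 32 members lower in KO cells, against 4.73% of genes, and 7 lower in WT cells, against 4.13%. For KO ruxolitinib over WT control, 0 members passed in the authors' deposited table in either direction, against 8.93% of genes higher and 8.21% lower.

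Counting error was estimated from the depth and annotated transcript lengths. The thinnest member value rested on about 524 fragments (Fbl in WT ruxolitinib), and the standard error of a member's log2 ratio from counting alone lay between 0.0091 and 0.086 in the 6 comparisons. The median error was 0.037 for KO over WT without drug and 0.036 for ruxolitinib in KO, against median ratios of 0.38 and -0.40. Some ratios near 0 were not larger than their error: Ddx10 for KO over WT with drug was at -0.03 with an error of 0.044. Polr1a for KO over WT without drug was at 0.06 with an error of 0.025. For KO ruxolitinib over WT control the median error of a single gene was 0.040, which is not the error of the median ratio over the members, -0.02. These errors leave out any spread between animals or cultures. A total of 13 members overlap another protein-coding gene in the annotation, and 8 hold annotated snoRNA genes within their span; whether counting used the strand is not stated. The 33 members that overlap no protein-coding gene had medians of 0.38 for KO over WT without drug, -0.40 for ruxolitinib in KO and -0.25 in WT. Overlap was read from annotated gene spans, and a deposited locus can be wider. That of Nob1, counted among the 33, runs from 107256164 to 107558595 on chromosome 8.

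The promoters of the members (250 bases before to 50 after the start, RefSeq, GRCm38.p6) were searched for motifs of factors linked to the pathway. Promoters were listed for 41 of 46 members. The E-box CACGTG, bound by Myc with Max, was present in 8 of 41 (19.5%), against 12.3% of 7783 measured protein-coding genes and 7.15% of all 32851 promoters. The STAT motif TTCNNNGAA was in 6 of 41 (14.6%), against 8.47% of measured coding genes and 8.30% of all promoters. The ETS motif CCGGAAG, read on both strands, was in 16 of 41 (39.0%), against 22.9% of measured coding genes and 8.86% of all promoters. The E-box and STAT motif read the same on both strands, no STAT match overlapped an ETS match, 5 members held an E-box with an ETS motif, and 16 held none of the 3. Members with and without an E-box had medians of 0.42 and 0.38 for KO over WT without drug, -0.40 and -0.40 for ruxolitinib in KO cells, and -0.21 and -0.25 in WT cells. With and without the STAT motif the medians were 0.44 and 0.38, -0.46 and -0.40, and -0.22 and -0.25 in the same comparisons. For the ETS motif they were 0.35 and 0.42, -0.39 and -0.45, and -0.24 and -0.24. These medians rest on 8 and 33 members for the E-box, 6 and 35 for the STAT motif, and 16 and 25 for the ETS motif. For KO over WT without drug the quartiles of the 46 members were 0.28 and 0.48. Differences by motif were not tested. A match in letters is not a bound site.

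Stretches around E-boxes are shown, with the motif in capitals and up to 25 bases on each side, ending at most 30 bases after the start, to show where the motif lies. They come from chr6:125131798-125131853 (Nop2, plus strand), chr11:93885756-93885811 (Utp18, minus), chr11:3963952-3964004 (Pes1, plus) and chr17:71616207-71616244 (Wdr43, plus).
Nop2: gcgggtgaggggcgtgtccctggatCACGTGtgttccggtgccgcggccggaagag
Utp18: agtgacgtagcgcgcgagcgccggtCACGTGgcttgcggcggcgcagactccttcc
Pes1: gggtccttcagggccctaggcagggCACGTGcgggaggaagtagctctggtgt
Wdr43: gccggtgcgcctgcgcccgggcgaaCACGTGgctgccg
The first base of the motif lies 60 bases before the start in Nop2 and 20 before it in Utp18, and is base 3 of the transcript in Pes1 and base 18 in Wdr43.

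The STAT motif is shown for members in which it lies within 80 bases of the start. The stretches come from chr1:59684935-59684993 (Nop58, plus strand), chr2:129100956-129101014 (Polr1b, plus), chr11:6267773-6267831 (Ddx56, minus) and chr5:110653353-110653399 (Noc4l, minus).
Nop58: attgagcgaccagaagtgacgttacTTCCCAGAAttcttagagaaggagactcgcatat
Polr1b: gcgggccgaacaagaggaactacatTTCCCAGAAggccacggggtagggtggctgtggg
Ddx56: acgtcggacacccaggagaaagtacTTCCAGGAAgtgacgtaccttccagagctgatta
Noc4l: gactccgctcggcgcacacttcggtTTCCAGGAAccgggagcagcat
The promoter of Dkc1, the member with the highest ratio of KO over WT without drug, holds none of the 3 motifs and is shown for contrast, from chrX:75095604-75095883 on the plus strand.
Dkc1: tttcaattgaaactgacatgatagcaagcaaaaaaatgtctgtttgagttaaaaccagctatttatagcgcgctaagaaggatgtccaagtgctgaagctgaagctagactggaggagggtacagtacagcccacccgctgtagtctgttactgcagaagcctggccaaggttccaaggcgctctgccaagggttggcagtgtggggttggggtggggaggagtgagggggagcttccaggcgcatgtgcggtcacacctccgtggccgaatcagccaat

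RNA polymerase I was covered by its largest catalytic subunits, which differed in how they followed genotype. Polr1a (chromosome 6, 71909053 to 71984935, mm10), the largest subunit, was at 11.7 FPKM in KO ruxolitinib, 15.5 in KO control, 11.4 in WT ruxolitinib and 14.9 in WT control. Its libraries were split by drug and hardly by genotype: the ratio of KO over WT was 0.06 without drug, the lowest of the 46, with a counting error of 0.025, and 0.04 with drug (0.21 and 0.17 on TPM), while ruxolitinib over control gave -0.38 in KO and -0.36 in WT. Polr1b (chromosome 2, 129100995 to 129126594), the second-largest subunit, was at 10.2 FPKM in KO ruxolitinib, 14.9 in KO control, 8.89 in WT ruxolitinib and 10.4 in WT control. Here the KO control library stood apart from the other libraries, with ratios of 0.48 over WT control and -0.50 for ruxolitinib in KO. A further 13 polymerase I genes (subunits and the factors that load the enzyme on rDNA) had a median of 0.16 for KO over WT without drug. Of these, 4 were higher by at least 0.32 and 0 lower, against 12.8% and 12.9% of all genes. With ruxolitinib 2 of the 13 were as far lower in KO cells and 0 in WT cells, against 7.65% and 6.06% of all genes, and 1 was higher in each. The subunit Polr1e had a ratio of 0.40 for KO over WT without drug, while the termination factor Ttf1 had -0.08, or 0.05 on TPM. The higher gene was Znrd1, which encodes a small subunit: it was at 115 FPKM in KO ruxolitinib, 81.0 in KO control, 109 in WT ruxolitinib and 76.7 in WT control, a ratio of 0.50 in each genotype.

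The box C/D snoRNP, which places methyl groups on rRNA, had the second-highest class median for KO over WT without drug, 0.48. In that comparison 4 of 4 genes were higher by at least 0.32, against 12.8% of all measured genes. Nop58 (chromosome 1, 59684971 to 59719044), a core scaffold protein, was at 83.6 FPKM in KO ruxolitinib, 116 in KO control, 66.0 in WT ruxolitinib and 78.3 in WT control. Nop56 (chromosome 2, 130274430 to 130279313), its partner, was at 42.4 FPKM in KO ruxolitinib, 56.9 in KO control, 32.1 in WT ruxolitinib and 38.7 in WT control. Both had KO values above the matching WT values with and without drug, at ratios of 0.56 and 0.34 for Nop58 and 0.55 and 0.39 for Nop56. Fbl, the methyltransferase of the particle, was lower in level, at 12.4 FPKM in KO ruxolitinib, 17.6 in KO control, 11.0 in WT ruxolitinib and 13.7 in WT control. Rrp9, a protein particular to the U3 snoRNP that guides early cleavage, was at 29.2 FPKM in KO ruxolitinib, 42.2 in KO control, 23.2 in WT ruxolitinib and 31.2 in WT control. It had the lowest drug ratios of the class, -0.52 in KO and -0.41 in WT. Nop56 overlaps Idh3b in the annotation, and Nop56 and Nop58 hold 5 and 4 annotated snoRNA genes.

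In the box H/ACA snoRNP, which converts uridine to pseudouridine, 4 of 4 genes were higher by at least 0.32 in KO control than in WT control. Of all measured genes 12.8% were as far higher. Dkc1 (chromosome X, 75095854 to 75109777), the pseudouridine synthase, was at 33.1 FPKM in KO ruxolitinib, 45.5 in KO control, 25.1 in WT ruxolitinib and 29.9 in WT control, and both KO values lay above both WT values. Its ratio without drug, 0.59, was the highest of the 46. Dkc1 is the only X-linked member and the libraries differ in sex: the 296 measured X-linked coding genes had a median ratio of 0.01 in this comparison and the 9300 autosomal ones 0.00. Nhp2, a core RNA-binding subunit, was at 84.0 FPKM in KO ruxolitinib, 124 in KO control, 79.5 in WT ruxolitinib and 97.7 in WT control. Nop10, the smallest core protein, was at 86.6 FPKM in KO ruxolitinib, 120.0 in KO control, 77.6 in WT ruxolitinib and 92.8 in WT control. For both, the KO ruxolitinib value was below the WT control value on FPKM. Gar1, the fourth core protein, was at 31.8 FPKM in KO ruxolitinib, 39.5 in KO control, 26.0 in WT ruxolitinib and 31.1 in WT control, with drug ratios of -0.30 in KO and -0.25 in WT, close to each other.

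The nucleolar phosphoproteins had the highest mean level per gene of the classes, and the highest median ratio of KO over WT without drug, 0.53. Npm1, nucleophosmin, a chaperone of histones and ribosomal proteins, was the most abundant member, at 198 FPKM in KO ruxolitinib, 271 in KO control, 179.6 in WT ruxolitinib and 210.0 in WT control. Processed copies of Npm1 exist in the mouse genome, which can make its level less certain. Processed copies were not examined for any member. Ncl (chromosome 1, 86344719 to 86359400), nucleolin, an RNA-binding protein of the nucleolus, was at 100.05 FPKM in KO ruxolitinib, 144 in KO control, 79.8 in WT ruxolitinib and 99.8 in WT control. KO cells with drug and WT cells without it thus had nearly the same Ncl value, a log2 ratio of 0.00, or 0.18 on TPM. Nolc1, a chaperone of snoRNPs, was at 39.6 FPKM in KO ruxolitinib, 55.1 in KO control, 28.7 in WT ruxolitinib and 37.7 in WT control. Nolc1 had the highest ratio of KO over WT with drug among the 46, 0.45.

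Factors of the small subunit processome and of 40S assembly numbered 13. Of these, 8 were higher by at least 0.32 in KO control than in WT control, against 12.8% of all measured genes. In KO ruxolitinib over WT ruxolitinib 3 were as far higher, against 9.45%. In both comparisons 0 were lower, against 12.9% and 9.03%. With drug 11 were lower by at least 0.32 in KO cells, against 7.65%, and 2 in WT cells, against 6.06%. Noc4l, which binds Nop14, had the highest ratio of KO over WT without drug in the class, 0.51, at 25.2 FPKM in KO ruxolitinib, 36.9 in KO control, 19.6 in WT ruxolitinib and 25.6 in WT control. Its partner Nop14 (chromosome 5, 34638536 to 34660148) was at 24.2 FPKM in KO ruxolitinib, 31.2 in KO control, 26.9 in WT ruxolitinib and 27.9 in WT control. These 2 partners thus differed in pattern: Nop14 was near the same level in both WT libraries and lowest in KO cells with drug, while Noc4l was lowest in WT cells with drug. Nob1, the endonuclease that makes the last cut of the small rRNA, was at 34.9 FPKM in KO ruxolitinib, 47.9 in KO control, 31.3 in WT ruxolitinib and 39.9 in WT control. Ltv1, a late assembly factor, was at 36.5 FPKM in KO ruxolitinib, 44.0 in KO control, 29.4 in WT ruxolitinib and 33.2 in WT control. Of its class Ltv1 had the drug ratio nearest 0 in KO cells, -0.26.

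The early processome proteins Utp15, Wdr43 and Heatr1, which belong to the complex that joins rRNA transcription to processing, had ratios of KO over WT without drug of 0.39, 0.45 and 0.18. The other members of the class were Utp18, Utp20, the RNA acetyltransferase Nat10, Rrp12, Bysl and Tsr1, with ratios between 0.26 (Tsr1) and 0.49 (Utp20). For ruxolitinib over control their ratios in KO cells ran from -0.40 (Tsr1) to -0.34 (Bysl), a narrow range. Utp20, a very large scaffold protein, was the lowest member in level in 2 libraries, at 9.41 FPKM in KO control and 6.39 in WT control.

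The 60S assembly factors numbered 16, with a median of 0.44 for KO over WT without drug. In that comparison 11 were higher by at least 0.32, against 12.8% of all measured genes. With drug 14 were lower by at least 0.32 in KO cells, against 7.65%, and 3 in WT cells, against 6.06%. Pes1, Bop1 and Wdr12 form the PeBoW complex, which is needed to mature the rRNAs of the large subunit. Pes1 was at 31.6 FPKM in KO ruxolitinib, 38.0 in KO control, 29.3 in WT ruxolitinib and 33.4 in WT control. Bop1 was at 43.3 FPKM in KO ruxolitinib, 56.3 in KO control, 39.4 in WT ruxolitinib and 47.1 in WT control. Wdr12 was at 15.3 FPKM in KO ruxolitinib, 20.6 in KO control, 15.3 in WT ruxolitinib and 16.7 in WT control. All 3 had ratios of KO over WT without drug below the class median, at 0.18, 0.25 and 0.29, and with drug Wdr12 was at 0.00, or 0.13 on TPM.

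Nop16, a nucleolar 60S factor, had the lowest drug ratio of the 46 in both genotypes, -0.65 in KO and -0.47 in WT, at 21.8 FPKM in KO ruxolitinib, 34.6 in KO control, 18.002 in WT ruxolitinib and 25.3 in WT control. Noc3l (chromosome 19, 38788128 to 38819237), which in yeast pairs with the Noc2 protein, had the drug ratios nearest 0, -0.24 in KO and -0.00 in WT, at 8.78 FPKM in KO ruxolitinib, 10.6 in KO control, 8.18 in WT ruxolitinib and 8.21 in WT control. Rescaled to TPM, the WT ratio of Noc3l was 0.03, the only sign among the 46 to turn in that comparison. Noc2l was at 55.2 FPKM in KO ruxolitinib, 73.2 in KO control, 46.5 in WT ruxolitinib and 53.5 in WT control, and so was lower with drug in both genotypes.

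Gnl3, nucleostemin, a GTP-binding protein abundant in stem and dividing cells, was at 48.2 FPKM in KO ruxolitinib, 66.4 in KO control, 40.7 in WT ruxolitinib and 46.8 in WT control. Grwd1, a WD-repeat protein, had the highest ratio of KO over WT without drug in the class, 0.55, at 16.5 FPKM in KO ruxolitinib, 23.8 in KO control, 12.7 in WT ruxolitinib and 15.9 in WT control. Mrto4 and Rrs1 followed it in the class at 0.52 each. Also not given value by value were Ebna1bp2 at 0.47, Rrp1b at 0.46, the rRNA methyltransferase Nop2 at 0.45, Wdr74 at 0.38, and Ppan and Nip7 at 0.27. With ruxolitinib these 8 genes had ratios from -0.56 (Rrp1b) to -0.32 (Wdr74) in KO cells and from -0.39 (Rrp1b) to -0.09 (Rrs1) in WT cells. The 17 members not given value by value lay between 6.45 and 37.1 FPKM in KO ruxolitinib, 9.41 and 48.9 in KO control, 5.12 and 31.2 in WT ruxolitinib, and 6.39 and 40.4 in WT control.

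Among the DEAD-box helicases, which remodel RNA in pre-ribosomes, 2 of 4 were higher by at least 0.32 in KO control than in WT control. Of all measured genes 12.8% were as far higher. The class had the lowest median in this comparison, 0.26. Ddx21, which also acts in polymerase I transcription, was at 65.7 FPKM in KO ruxolitinib, 86.6 in KO control, 57.6 in WT ruxolitinib and 66.4 in WT control. Ddx56 was at 17.4 FPKM in KO ruxolitinib, 21.2 in KO control, 14.3 in WT ruxolitinib and 16.6 in WT control. Ddx18 was at 13.1 FPKM in KO ruxolitinib, 15.8 in KO control, 11.2 in WT ruxolitinib and 13.9 in WT control. It was the only member with a drug ratio nearer 0 in KO than in WT, -0.25 against -0.29. Ddx10 was at 14.9 FPKM in KO ruxolitinib, 18.03 in KO control, 15.2 in WT ruxolitinib and 15.8 in WT control, so that the KO control library stood above 3 similar values.

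**Figure D3:**
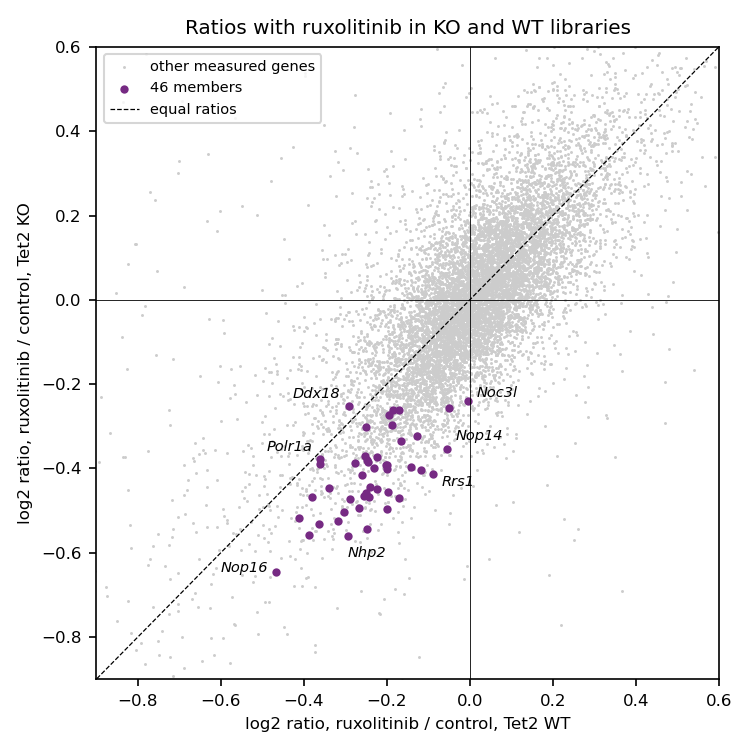
Log2 ratio of FPKM + 1 for ruxolitinib over control in KO cells (vertical) against WT cells (horizontal), with the 46 members in purple, other measured genes in grey and equal ratios as a dashed line. All members lie in the lower left, with Noc3l at -0.00 in WT (0.03 on TPM), and 45 lie below the dashed line, Ddx18 being the exception; 417 other genes lie beyond the axes.

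The ratios of members could be followed between pairs that share no library. Across the 46 genes, the ratios of KO over WT with and without drug correlated at 0.79 (Pearson) and 0.80 (Spearman), and the drug ratios in KO and WT cells at 0.63 and 0.57. Over all measured genes the Spearman values were 0.80 and 0.68, and the Pearson values 0.34 and 0.16. Genes of 1 library share its depth and preparation, so these values describe the libraries only.

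Further ribosome biogenesis genes leaned the same way with smaller ratios. The 40 other 40S factors had a median of 0.24 for KO over WT without drug, with 11 higher by at least 0.32 and 0 lower. All measured genes were as far higher in 12.8% and lower in 12.9%. The 46 other 60S factors had a median of 0.26, with 18 higher and 0 lower, and the 14 genes of the RNA exosome, which trims rRNA ends, 0.32, with 7 higher and 0 lower. For ruxolitinib over control in KO cells the medians were -0.29, -0.24 and -0.23, with 12, 13 and 2 genes lower by at least 0.32, against 7.65% of all genes. In WT cells the medians were -0.13, -0.11 and -0.09, with 1, 2 and 0 genes lower, against 6.06%. In WT cells the lean thus lay in the medians and not in these counts. Ftsj3, an rRNA methyltransferase, led the 60S list for KO over WT at 0.55. Unlike most of the list, Sbds, which acts in the last step of 60S maturation, was at 43.0 FPKM in KO ruxolitinib, 44.2 in KO control, 51.3 in WT ruxolitinib and 52.7 in WT control, a ratio of -0.25 without drug, or -0.10 on TPM. The ATPase Spata5 had the lowest drug ratios of the 60S list, -0.87 in KO and -0.69 in WT, with 14.6 FPKM in KO ruxolitinib, 27.6 in KO control, 14.4 in WT ruxolitinib and 23.8 in WT control. Of the 40S list, the GTPase Bms1 had the lowest, -0.56 in KO and -0.50 in WT, and Cirh1a had the highest ratio of KO over WT, 0.49, with the kinase Riok1 lowest at -0.19. In the exosome list Exosc2 was highest at 0.82, at 31.7 FPKM in KO ruxolitinib, 39.9 in KO control, 23.7 in WT ruxolitinib and 22.2 in WT control, and the helicase Skiv2l2 was lowest at -0.05, or 0.10 on TPM. The lowest exosome drug ratios were -0.56 for Exosc6 in KO and -0.25 for the nuclease Dis3 in WT.

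**Figure D4:**
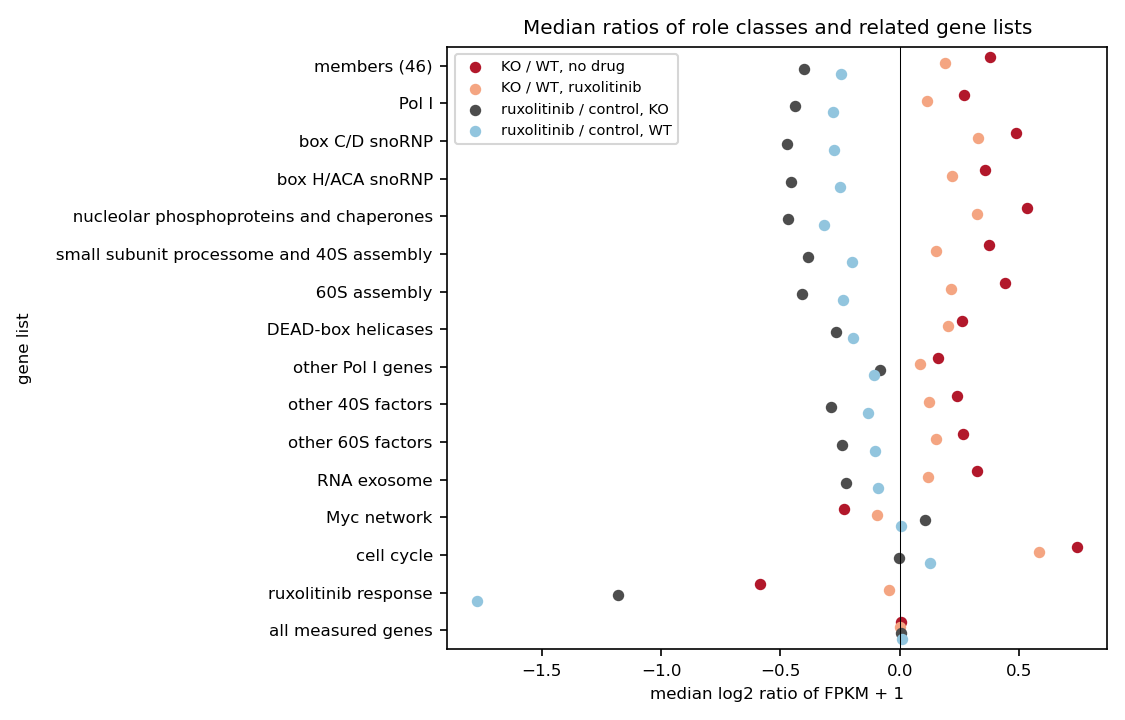
Median log2 ratio of FPKM + 1 (horizontal) for the 46 members, their role classes, related lists and all measured genes, with 1 point per comparison. The ribosome biogenesis lists sit right of 0 for KO over WT and left of 0 for ruxolitinib, cell cycle genes sit at 0.74 and 0.58 for KO over WT and nearer 0 for ruxolitinib, and genes of the JAK2 response are furthest left with ruxolitinib.

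Transcripts of Myc, the factor that binds the E-box, differed little between genotypes. Myc was at 53.4 FPKM in KO ruxolitinib, 61.0 in KO control, 57.0 in WT ruxolitinib and 64.2 in WT control, with ratios of -0.07 for KO over WT without drug and -0.09 with drug, -0.19 for ruxolitinib in KO and -0.17 in WT. On TPM these ratios were 0.08, 0.04, -0.17 and -0.13, and KO ruxolitinib over WT control was at -0.09. In that pair, on TPM, 40 members lay above 0 and 6 below it, so Myc went with the smaller group. On FPKM the WT control library held the highest Myc value, a place it held for 0 members. On FPKM both ends of the Myc order thus differed from those of most members. On TPM its ends were those of most members, KO control highest and WT ruxolitinib lowest, with a ratio of 0.21. There only the middle pair differed. Mycn, a relative of Myc, was at 3.34 FPKM in KO ruxolitinib, 11.97 in KO control, 4.20 in WT ruxolitinib and 15.6 in WT control, a drug ratio of -1.58 in KO and -1.67 in WT. Mxd4, which competes with Myc for its partner Max, was at 45.8 FPKM in KO ruxolitinib, 31.4 in KO control, 75.001 in WT ruxolitinib and 58.6 in WT control. The ends of its order were those of most members exchanged, with WT ruxolitinib highest and KO control lowest. These places are common: the libraries held them for 28.2% and 32.0% of all measured genes. Max itself lay between 47.6 and 52.8 FPKM.

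Proliferation genes and some mast cell genes also differed between these libraries. Of 20 cell cycle genes, 18 were higher by at least 0.32 in KO control than in WT control, against 12.8% of all measured genes. In KO ruxolitinib over WT ruxolitinib 19 were as far higher, against 9.45%. Their median ratios were 0.74 and 0.58. Their summed level was 1490 FPKM in KO ruxolitinib, 1459 in KO control, 1007 in WT ruxolitinib and 912 in WT control. For ruxolitinib over control 0 of 20 reached 0.32 in either genotype, with medians of -0.00 in KO (0.02 on TPM) and 0.13 in WT. Summed mast cell markers were at 23230 and 19445 FPKM in the KO ruxolitinib and KO control libraries and at 31270 and 27659 in the matching WT libraries. The sums lean on abundant genes: Cma1 was at 8289 in KO control and 13677 in WT control, and Fcer1a at 3451 and 5594. Tpsb2, also abundant, had a ratio of -0.02 in this comparison, and the less abundant Tpsab1 had 1.13. Of 12 measured markers 3 were lower by at least 0.32 and 1 higher in KO control than in WT control, against 12.9% and 12.8% of all genes. Cpa3 was listed at 0 in all 4. The median ratio of the mast cell markers for KO over WT was -0.22 without drug and -0.12 with drug, or -0.07 and 0.01 on TPM. The part of cell cycle and mast cell differences in the results for the nucleolar factors was not tested. The 7 genes of the JAK2 response were all lower by at least 0.32 with drug in both genotypes. Of all measured genes 7.65% were as far lower in KO cells and 6.06% in WT cells. Cish, for example, was at 40.7 FPKM in KO ruxolitinib and 114 in KO control, and at 45.1 in WT ruxolitinib and 174 in WT control. The 7 genes had medians of -1.18 in KO and -1.77 in WT. Their median difference between genotypes was 0.39, a sign opposite to the -0.19 of the nucleolar factors, and the difference was not tested.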

How the data were processed

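RNA-seq was made from 4 libraries of mouse bone marrow cells, 1 per group. The authors deposited FPKM values per gene and library, with pairwise log2 fold changes and q-values; STAR, Cuffdiff and the build mm10 are named per the submitters' processing notes. Their versions, the annotation and the strand setting were not given in the sources used here. Each q-value printed is taken from the authors' deposited table. From the FPKM values, log2 ratios of FPKM plus a pseudocount of 1 were computed for genes averaging 1 FPKM or more; no test was possible with 1 library a group. The members and lists were chosen with earlier results of these data known. Genes given value by value were, in each role class, those with the highest and lowest ratio in 3 comparisons, the 2 most abundant, and 11 fixed core genes. Depth was estimated from the smallest steps of FPKM, which rest on annotated transcript lengths. Scripts were tested on simulated data. Overlaps used GENCODE annotation of mm10, and promoters RefSeq GRCm38.p6. The alternatives were other pseudocounts, other filters on low values, rescaling to TPM, centring, a stricter fold, and leaving out overlapping members. Computations used Python 3.11.15 and pandas 2.3.3.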

Additional observations from a re-analysis of the deposited data

Results flagged for a closer look

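In 2 members the ratio of KO over WT had opposite signs with and without ruxolitinib; each difference rests on 1 library a group and was not tested. Nop14 was at -0.14 with drug and 0.15 without, and Ddx10 at -0.0262 with drug, within its counting error of 0.044, and 0.18 without. On TPM Nop14 with drug was at -0.02 and Ddx10 at 0.10, so the opposite sign was seen for Ddx10 on FPKM only.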

How the results depend on the processing

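No paired analysis was possible because each group has 1 library, and for the same reason no replicate could be left out. Of 49 alternative medians 47 stayed within 0.1 on the log2 scale or within 1.5 times the reported value, a loose bound: on TPM the median of KO over WT without drug was 0.53, against 0.38 as reported, and that of KO control over WT ruxolitinib 0.73, against 0.61. Of 112 alternative counts 99 stayed within 1.5 times and 0 reversed. These totals overstate stability, for medians and counts alike. The filters on low values could not change any member result, because every member averaged at least 5 FPKM. Most of the counts were also 0 as reported, and nearly all of those stayed at 0. Among counts above 0, the shifts came with TPM, a pseudocount of 5, centring and the 1.5-fold rule. Rescaled to TPM, the median of KO over WT with drug was 0.33 and its count of members higher by at least 0.32, 24, the median of KO ruxolitinib over WT control was 0.15, and 3 members had a difference of drug ratios past 0.32. At 1.5-fold, members counted were 1 for KO over WT without drug, 0 with drug, 0 lower for ruxolitinib in WT, 1 in KO, 26 for KO control over WT ruxolitinib and 0 for the difference of drug ratios. With a pseudocount of 5, 3 members were higher in KO with drug, 4 were lower with ruxolitinib in WT, and 0 passed for the difference. With a pseudocount of 0.1, 1 member was lower in KO ruxolitinib than in WT control, and with centred ratios 0 passed for the difference. Leaving out members that overlap a coding gene was chosen after seeing the data. The cause of these shifts was not tested. The spread between animals is unknown.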
